A study of Mus musculus with 32 samples.

Results

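The 10 genes described here encode the main proteins of the basement membrane and helpers of its assembly: the collagen IV chains Col4a1 and Col4a2, the laminin chains Lama1, Lamb1 and Lamc1, the nidogens Nid1 and Nid2, perlecan (Hspg2), Sparc and Serpinh1. They were chosen by name, with earlier results of these data known. Ensembl identifiers were matched for 10 of 10, and they are 10 of the 31053 genes in the count tables. All 10 passed the filter on low counts. RNA was measured in C1, a mouse embryonic stem cell (ESC) line made from β-catenin-/- ESCs by double lentiviral infection. All 8 groups, controls included, therefore lack endogenous β-catenin and carry β-catenin S33Y, a constitutively active form fused to mCherry and a destabilizing domain, which doxycycline (dox) induces and trimethoprim (TMP) protects from degradation. At day 0, in pluripotent culture, C1 cells had received TMP alone, whereas C1M and C1H cells had received dox and TMP and were sorted for middle and high mCherry. At day 4 of monolayer differentiation in NDiff227 on gelatin, C1T came from C1 cells kept in TMP, C1MV and C1HV came from C1M and C1H cells with both inducers withdrawn (DMSO), and C1MDT and C1HDT came from C1M and C1H cells kept in dox and TMP. Each group had 4 biological replicates. For the medium before differentiation the growth protocol of the deposited record names serum with LIF. The study's methods state that only cells pre-cultured in 2i/L were profiled by RNA sequencing.

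The basement membrane is a thin sheet of extracellular matrix under epithelia. Laminin trimers assemble at the cell surface, collagen IV trimers form a covalent network beside them, and nidogen and perlecan join the networks. In the mouse embryo such a sheet separates the epiblast from the primitive endoderm, and parietal endoderm is known for secreting large amounts of collagen IV and laminin into Reichert's membrane. The trimer made of the products of Lama1, Lamb1 and Lamc1 is a major laminin of the early embryo.

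Col4a1 (ENSMUSG00000031502, GRCm38 chr8:11198423-11312826, minus strand) and Col4a2 (ENSMUSG00000031503, chr8:11312805-11449287, plus strand) lie head to head and encode the chains of the ubiquitous collagen IV trimer. Lama1 (ENSMUSG00000032796, chr17:67697259-67822647, plus strand), Lamb1 (ENSMUSG00000002900, chr12:31265234-31329644, plus strand) and Lamc1 (ENSMUSG00000026478, chr1:153218922-153332786, minus strand) encode an α, a β and a γ laminin chain. Nid1 (ENSMUSG00000005397, chr13:13437551-13512269, plus strand) and Nid2 (ENSMUSG00000021806, chr14:19751265-19811787, plus strand) encode nidogens, which bind laminin and collagen IV. Hspg2 (ENSMUSG00000028763, chr4:137468769-137570630, plus strand) encodes perlecan, a heparan sulfate proteoglycan. Sparc (ENSMUSG00000018593, chr11:55394500-55423183, minus strand) encodes a secreted collagen-binding glycoprotein, and Serpinh1 (ENSMUSG00000070436, chr7:99345376-99353239, minus strand) encodes HSP47, the endoplasmic reticulum chaperone of procollagen.

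The first exons of Col4a1 and Col4a2 overlap by 22 bases, chr8:11312805-11312826, which are shown on the strand of each gene because these neighbours had the most similar profiles of any pair of the 10 genes. Capitals mark the box GGGCGG (or CCGCCC on the other strand) bound by SP and KLF factors.
Col4a2: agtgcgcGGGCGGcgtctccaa
Col4a1: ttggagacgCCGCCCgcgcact

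The promoter table (RefSeq, GRCm38.p6) held 7 of the 10 genes, and the 250 bases before the RefSeq start are shown for Lamb1 (chr12:31265043-31265292, plus strand) and Serpinh1 (chr7:99353240-99353489, minus strand), which rose from day 0 to day 4 in the induced cells, and for Nid1 (chr13:13437352-13437601, plus strand), which fell over the same days with and without induction. The RefSeq start lies downstream of the GENCODE gene start used above for some genes, so 59 bases of the window of Lamb1, 51 of Nid1, 34 of Hspg2 and all 250 of Sparc are inside the GENCODE gene. The windows are written 5′ to 3′ with the same box in capitals.
Lamb1: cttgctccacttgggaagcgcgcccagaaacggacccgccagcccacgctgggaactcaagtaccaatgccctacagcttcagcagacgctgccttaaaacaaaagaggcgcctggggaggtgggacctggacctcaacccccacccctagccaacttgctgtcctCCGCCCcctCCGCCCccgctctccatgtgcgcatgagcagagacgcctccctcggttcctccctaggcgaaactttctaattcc
Serpinh1: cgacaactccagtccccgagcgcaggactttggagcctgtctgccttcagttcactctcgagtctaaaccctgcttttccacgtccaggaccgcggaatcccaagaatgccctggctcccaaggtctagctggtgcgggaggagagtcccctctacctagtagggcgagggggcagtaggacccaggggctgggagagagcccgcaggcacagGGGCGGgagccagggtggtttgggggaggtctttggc
Nid1: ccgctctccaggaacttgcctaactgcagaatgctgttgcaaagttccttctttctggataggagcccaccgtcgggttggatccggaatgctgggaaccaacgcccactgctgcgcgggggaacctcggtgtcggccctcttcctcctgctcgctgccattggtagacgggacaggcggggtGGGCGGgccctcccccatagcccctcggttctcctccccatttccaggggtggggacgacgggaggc

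Searched on both strands, GGGCGG was present in this window in 5 of the 7 genes and in 32.7% of all 32851 stretches of the same length. The letters CTTTGA, a core bound by TCF/LEF factors, were in 0 of the 7 and in 13.8% of all stretches, and GATAA, a core bound by GATA factors, was in 0 of the 7 and in 22.6%. These matches describe the letters of the windows only.

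Gene counts summed to 1366951 to 3648787 per library (median 2402467.5). Ctnnb1, the β-catenin gene and also part of the fusion, was at 7.81 ± 2.63 CPM (counts scaled to a common library total with TMM factors) in C1, 12.3 ± 3.84 in C1M and 41.2 ± 5.70 in C1H. At day 4 it was at 29.2 ± 4.29 and 30.8 ± 3.75 CPM in C1MDT and C1HDT and between 6.21 and 9.74 CPM on average in C1T, C1MV and C1HV. The C1M libraries, at 9.45 to 17.7 CPM of Ctnnb1, overlapped with those of C1, at 5.19 to 11.0. The source of the Ctnnb1 reads in uninduced cells was not tested. Among markers of naive pluripotency, Klf4 was at 1285 ± 109 CPM in C1 and 36.7 to 43.7 in the C1T libraries, and the formative epiblast marker Dnmt3b was at 31.1 ± 7.03 and 581 ± 98.3 CPM. The summed CPM of 10 naive markers averaged 5221 to 6797 in the day 0 groups and 1100 in C1T, and that of 6 formative markers 157 to 184 and 2228. The induced day 4 groups stood apart from C1T: naive markers summed to 1590 and 1517 CPM with inducers withdrawn (C1MV, C1HV) and to 722 and 725 with inducers kept (C1MDT, C1HDT), and formative markers to 847 and 923 and to 1433 and 1415. Levels are of 3′ tags without correction for gene length or priming, so CPM are compared between groups within a gene.

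**Figure D1:**
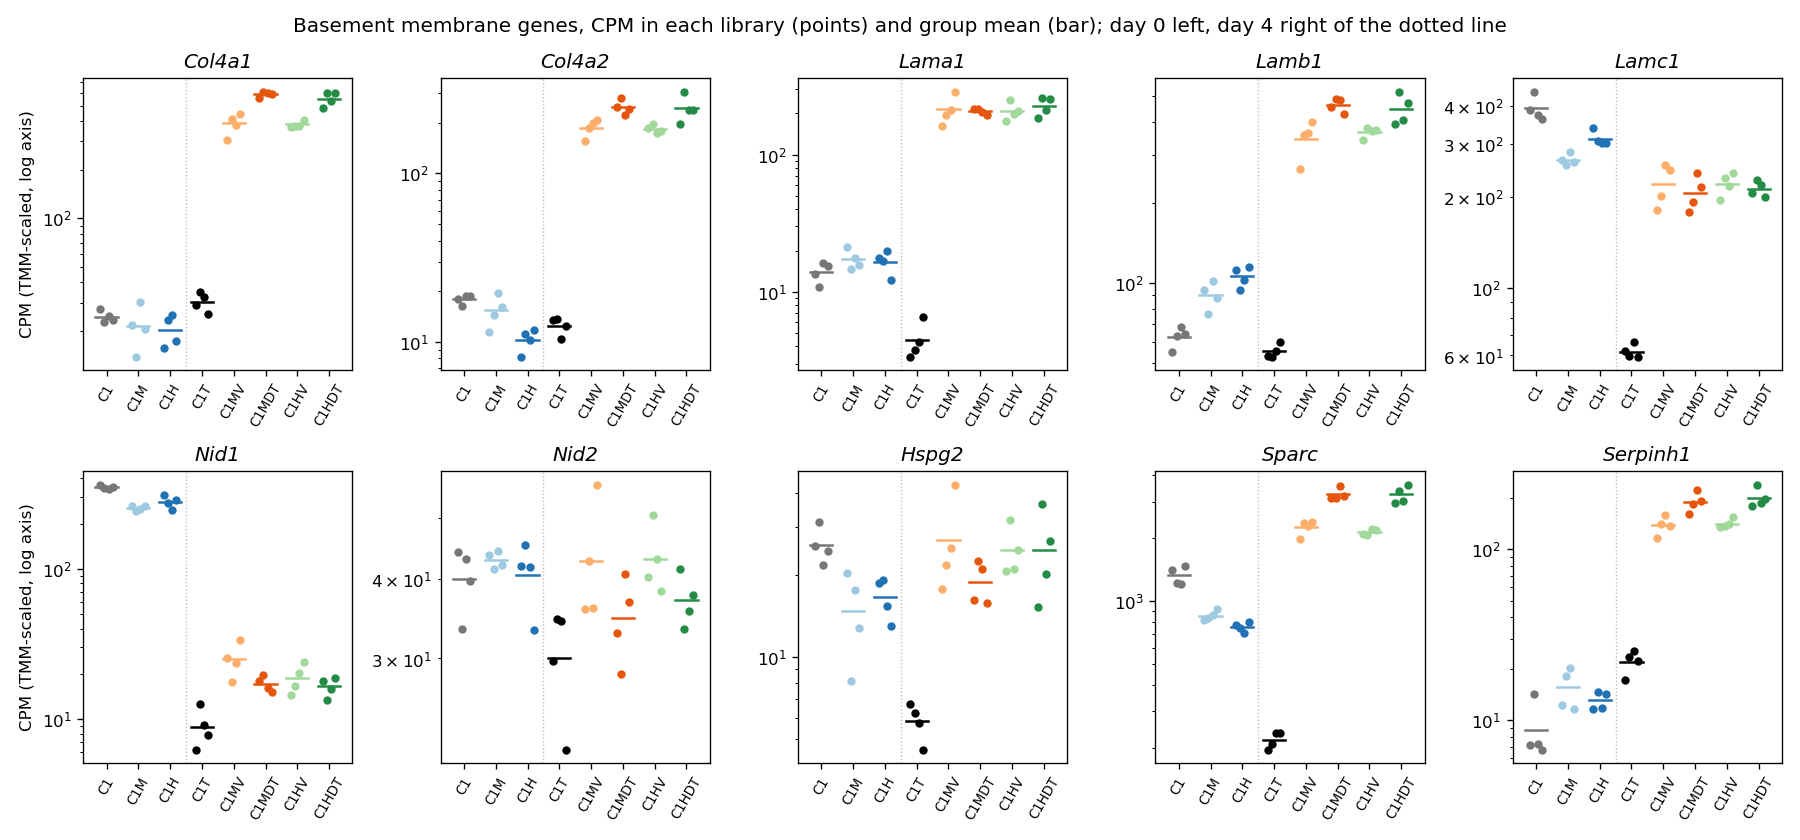
CPM of each of the 10 basement membrane genes on a log axis, with 1 point per library (4 per group), a bar at the group mean, and a dotted line between the day 0 groups C1, C1M and C1H on the left and the day 4 groups on the right. Col4a1, Col4a2, Lama1, Lamb1, Sparc and Serpinh1 sat higher in all 16 day 4 libraries with prior induction than in every other library, Nid1 sat highest at day 0, and Nid2 varied least between groups.

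As a whole the 10 genes took 0.222% ± 0.0086 of gene counts in C1, 0.163% ± 0.0054 in C1M and 0.162% ± 0.0064 in C1H. Their share at day 4 was 0.0434% ± 0.0023 in C1T, while C1MV and C1HV had 0.387% ± 0.0465 and 0.380% ± 0.0121 and C1MDT and C1HDT had 0.518% ± 0.0225 and 0.511% ± 0.0485. C1T libraries lay below all day 0 libraries and the 16 libraries with prior induction lay above them, without overlap between these 3 kinds. Sparc supplied the most counts of the 10 genes in every group, with group means from 218 to 3249 CPM.

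At day 0, the comparison of C1M and C1H with C1 asked how these genes differed after induction in pluripotent culture. The fusion protein, dox itself and the sort for mCherry cannot be told apart in it, nor in the comparisons of day 4 groups with C1T. C1MV and C1HV also differ from C1T in TMP, which C1T kept during differentiation. Lamb1 and Serpinh1 were higher and Lamc1, Nid1, Hspg2 and Sparc lower in both sorted fractions, with log2 fold changes between -0.82 and 0.88, and C1H also had less Col4a2. Sparc was at 1410, 1227, 1208 and 1472 CPM in C1, at 817, 829, 856 and 920 in C1M, and at 768, 749, 708 and 795 in C1H. All induced libraries were thus below all C1 libraries, and the log2 fold change was -0.64 ± 0.07 (standard error) in C1M (edgeR adjusted p = 6.63e-15) and -0.82 ± 0.07 in C1H (adjusted p = 1.41e-21). Since RNA was taken from bulk cultures, fewer cells of a type and less RNA per cell cannot be told apart here or below. Lamc1 was at 389, 447, 376 and 364 CPM in C1, 265, 256, 283 and 261 in C1M, and 340, 307, 303 and 302 in C1H, again without overlap with C1. Its log2 fold change was -0.56 ± 0.08 in C1M (adjusted p = 2.31e-09) and -0.33 ± 0.08 in C1H (adjusted p = 0.000462).

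The partner chain of Lamc1 moved the other way at day 0. Lamb1 was at 55.0, 63.4, 68.5 and 64.2 CPM in C1, 94.2, 76.3, 102 and 87.9 in C1M, and 112, 93.8, 103 and 114 in C1H, with every induced library above every C1 library. It rose by a log2 fold change of 0.53 ± 0.11 in C1M (adjusted p = 4.02e-05) and 0.75 ± 0.10 in C1H (adjusted p = 2.8e-09). Nid1 averaged 350 ± 10.9 CPM in C1, 254 ± 9.42 in C1M and 280 ± 25.8 in C1H, without overlap with C1, and its log2 fold changes were -0.46 ± 0.08 and -0.32 ± 0.08 (adjusted p = 2.34e-06 and 0.0012). Perlecan transcripts also decreased: Hspg2 averaged 25.7 ± 3.93 CPM in C1, 14.7 ± 5.39 in C1M and 16.6 ± 2.91 in C1H, with log2 fold changes of -0.81 ± 0.23 (adjusted p = 0.00576) and -0.62 ± 0.22 (adjusted p = 0.034). Col4a2 was also lower in C1H, at 8.18, 11.2, 10.3 and 11.8 CPM against 18.0, 16.4, 18.7 and 18.7 in C1 (log2 fold change -0.81 ± 0.19, adjusted p = 0.000595). In C1M its log2 fold change was -0.21 ± 0.18 (adjusted p = 0.432), and Col4a2 did not pass the threshold between C1H and C1M either.

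Serpinh1, the collagen chaperone gene, was at 7.14, 14.2, 7.27 and 6.71 CPM in C1, 12.3, 18.1, 20.2 and 11.6 in C1M, and 11.6, 14.6, 11.7 and 14.3 in C1H. C1 replicate 2 overlapped with both induced groups, and the other 3 C1 libraries lay below all induced libraries. The log2 fold change was 0.88 ± 0.22 in C1M (adjusted p = 0.00101) and 0.60 ± 0.23 in C1H (adjusted p = 0.0407). The call in C1H was lost when any of C1 replicates 1, 3 and 4 or C1H replicates 2, 3 and 4 was left out (adjusted p = 0.0515 to 0.172). That of Hspg2 in C1H was lost without C1 replicate 1 or 2 or C1H replicate 3 or 4 (adjusted p = 0.0562 to 0.0991). Col4a1, Lama1 and Nid2 did not pass the threshold in either fraction.

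In C1M vs C1, 2 of the 10 genes were called higher and 4 lower, where 14.3% of all tested genes were called higher and 12.0% lower. C1H vs C1 gave 2 higher and 5 lower, against 13.8% and 12.1% of all tested genes. The median log2 fold change of the 10 genes was -0.19 in C1M and -0.30 in C1H, beside 0.06 and 0.04 over all tested genes. These comparisons share the C1 libraries. Between the sorted fractions, C1H vs C1M, edgeR called 0 of the 10 genes (1.77% of all tested genes). An unadjusted p under 0.05 was found for 4 of the 10 and for 1914 of all 15280 tested genes. The log2 fold changes of the 10 genes ran from -0.60 to 0.23 with 95% intervals reaching from -0.97 to 0.65. With only the libraries of C1H and C1M in the fit 2 genes were called, Lamc1 higher and Sparc lower, where 601 of all genes were called against 271 in the fit of all groups, and without C1M replicate 1 the count was 1, Col4a2 lower. DESeq2 called 0.

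During 4 days of differentiation without induction, most of the 10 genes fell. Nid1 was at 364, 344, 339 and 352 CPM in C1 and at 6.24, 12.5, 9.06 and 7.83 CPM in C1T, the steepest decrease of the group. All C1T libraries were far below all C1 libraries, with a log2 fold change of -5.26 ± 0.13 (adjusted p = 4.99e-77), or 38.3-fold lower. Lamc1 decreased from the C1 values above to 61.9, 59.5, 66.3 and 59.4 CPM (log2 fold change -2.67 ± 0.09, adjusted p = 3.08e-58) and Sparc to 195, 209, 235 and 234 CPM (log2 fold change -2.61 ± 0.07, adjusted p = 3.46e-70), again without overlap. Perlecan and the laminin α chain also fell. Hspg2 was at 25.6, 31.1, 21.8 and 24.5 CPM in C1 and 6.72, 6.25, 5.72 and 4.57 in C1T (log2 fold change -2.11 ± 0.29, adjusted p = 5.92e-09). Lama1 was at 13.4, 10.8, 16.1 and 15.3 CPM in C1 and 3.36, 3.75, 4.29 and 6.53 in C1T (log2 fold change -1.68 ± 0.35, adjusted p = 7.63e-05), and neither gene had overlapping groups.

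Smaller decreases were called for Col4a2, at 13.4, 13.7, 10.5 and 12.4 CPM in C1T (log2 fold change -0.52 ± 0.20, adjusted p = 0.0232), and for Nid2, at 44.1, 33.4, 43.1 and 39.8 CPM in C1 and 29.8, 34.6, 34.3 and 21.5 in C1T (log2 fold change -0.40 ± 0.15, adjusted p = 0.0221). The Nid2 groups overlapped and the Col4a2 groups did not. The call for Col4a2 was lost without C1 replicate 3 or 4 or C1T replicate 3 (adjusted p = 0.0515 to 0.0915), and that for Nid2 without C1 replicate 1 or 3 or C1T replicate 1 or 4 (adjusted p = 0.0539 to 0.135). The 3′ end of Nid2 overlaps that of Rtraf on the other strand, an abundant gene at 129 ± 11.6 CPM in C1 and 132 ± 13.1 in C1T, so Nid2 values are uncertain where counting did not use strand.

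The procollagen chaperone was the exception in direction. Serpinh1 rose to 17.3, 23.3, 25.3 and 22.2 CPM in C1T, above all C1 libraries (log2 fold change 1.35 ± 0.22, adjusted p = 3.77e-08). Col4a1, at 28.8, 35, 32.4 and 25.5 CPM in C1T against 27.3, 22.6, 24.9 and 23.5 in C1, and Lamb1, at 55.5 ± 3.30 against 62.8 ± 5.67 CPM, had overlapping groups and did not pass the threshold (log2 fold change 0.32 ± 0.17 and -0.18 ± 0.12, adjusted p = 0.126 and 0.207). In all, 1 of the 10 genes was called higher and 7 lower in C1T vs C1, beside 24.4% and 24.9% of all tested genes, and 7 had groups that did not overlap, as had 42.4% of all tested genes. Their median log2 fold change was -1.10, and that of all tested genes 0.01.

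The same 4 days gave another result in cells that had been induced beforehand. Col4a1 was at 21.6, 13.8, 30.3 and 20.6 CPM in C1M and reached 308, 416, 382 and 447 CPM in C1MV, from which the inducers had been withdrawn, and 556, 611, 597 and 588 CPM in C1MDT, which kept them. In the high fraction it was at 15.7, 23.4, 25.3 and 17.2 CPM in C1H, 370, 374, 376 and 409 in C1HV, and 482, 602, 534 and 596 in C1HDT. No day 4 library overlapped with its day 0 group. The fold rise was 17.7 for C1MV and 18.7 for C1HV, and 27 for both C1MDT and C1HDT, and in the order C1MV, C1MDT, C1HV, C1HDT these were log2 fold changes of 4.15 ± 0.12, 4.75 ± 0.12, 4.22 ± 0.13 and 4.75 ± 0.12 (adjusted p at most 1.1e-36). Col4a2 reached 156, 185, 198 and 207 CPM in C1MV and 246, 281, 221 and 241 in C1MDT, from 11.5, 14.5, 19.6 and 16.1 in C1M. It reached 185, 195, 173 and 178 CPM in C1HV and 196, 305, 237.5 and 238.4 in C1HDT, so the collagen IV partners rose together, by log2 fold changes of 3.57 ± 0.12, 3.98 ± 0.12, 4.14 ± 0.13 and 4.56 ± 0.13 for Col4a2 in C1MV, C1MDT, C1HV and C1HDT against their day 0 groups.

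Among the laminin chains, Lama1 showed the steepest rise and Lamc1 fell. Lama1 was at 21.2, 14.5, 17.6 and 15.7 CPM in C1M, 162, 195, 212 and 288 in C1MV, and 217, 215, 204 and 194 in C1MDT. It was at 17.7, 16.7, 19.8 and 12.2 CPM in C1H, 177, 251, 197 and 208 in C1HV, and 184, 257, 213 and 255 in C1HDT. Day 0 and day 4 libraries did not overlap, and the log2 fold changes of Lama1 were 3.62 ± 0.16, 3.59 ± 0.16, 3.63 ± 0.16 and 3.76 ± 0.16 in C1MV, C1MDT, C1HV and C1HDT. Lamb1 rose to 347 ± 56.2, 464 ± 28.3, 367 ± 16.2 and 449 ± 59.4 CPM in the same order (log2 fold change 1.94 ± 0.09, 2.36 ± 0.09, 1.80 ± 0.09 and 2.08 ± 0.09). Lamc1 was at 181, 201, 255 and 247 CPM in C1MV, 179, 192, 240 and 216 in C1MDT, 196, 232, 217 and 240 in C1HV, and 206, 228, 219 and 201 in C1HDT. Each of these groups lay below its own day 0 group, with log2 fold changes of -0.28 ± 0.08 (adjusted p = 0.003), -0.36 ± 0.08 (adjusted p = 7.9e-05), -0.50 ± 0.08 (adjusted p = 5.46e-08) and -0.55 ± 0.08 (adjusted p = 8.98e-10). The first of these, for C1MV vs C1M, was lost without C1MV replicate 1 or 2 (adjusted p = 0.0872 and 0.0643), with a log2 fold change of -0.18 without replicate 1.

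Of the linker genes, Nid1 fell steeply, whereas Nid2 and Hspg2 had log2 fold changes between -0.29 and 0.80. Nid1 decreased from 254 ± 9.42 CPM in C1M to 25 ± 6.57 in C1MV and 17.2 ± 1.93 in C1MDT, and from 280 ± 25.8 in C1H to 18.8 ± 4.24 in C1HV and 16.5 ± 2.41 in C1HDT. These are decreases of 10.5-fold, 14.9-fold, 14.9-fold and 16.7-fold without overlap (adjusted p at most 4.05e-62). Nid2 averaged between 34.7 and 43.1 CPM in the 4 groups and was called in none of them against day 0, with an adjusted p of 0.063 in C1MDT. In that comparison its log2 fold change was -0.29 ± 0.14, and it passed the threshold with RLE factors (adjusted p = 0.0476), with library size only (0.0302), with a filter of 1 CPM in every library (0.0316) and without C1MDT replicate 3 (0.0307). Hspg2 was at 17.7, 21.7, 25.1 and 42.8 CPM in C1MV and rose by a log2 fold change of 0.80 ± 0.23 (adjusted p = 0.00296), with overlapping groups. Its change was 0.38 ± 0.23 in C1MDT (adjusted p = 0.166), where the call was gained without C1M replicate 1 (log2 fold change 0.60, adjusted p = 0.0331) and the change was 0.19 without C1M replicate 2 (adjusted p = 0.499).

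In the high fraction Hspg2 changed by 0.54 ± 0.23 in C1HV and 0.53 ± 0.22 in C1HDT (adjusted p = 0.0464 and 0.0351). Neither call was stable. That in C1HV was lost without C1H replicate 3 or 4 or C1HV replicate 2 or 4 (adjusted p = 0.0525 to 0.138), that in C1HDT without C1H replicate 3 or 4 or C1HDT replicate 2 or 4 (adjusted p = 0.0699 to 0.216, with a log2 fold change of 0.31 without C1HDT replicate 2), and both with RLE factors, library size only, the filter of 1 CPM in every library and DESeq2 (adjusted p = 0.0523 to 0.0769).

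Sparc and Serpinh1, whose products bind and fold collagen, rose in all 4 groups. Sparc was at 1979, 2380, 2289 and 2406 CPM in C1MV, 3114, 3116, 3572 and 3195 in C1MDT, 2096, 2070, 2229 and 2200 in C1HV, and 2955, 3380, 3018 and 3611 in C1HDT. All of these exceeded every day 0 library, with log2 fold changes over day 0 of 1.40 ± 0.07, 1.93 ± 0.07, 1.51 ± 0.07 and 2.10 ± 0.07. Serpinh1 was at 117, 140, 157 and 137 CPM in C1MV, 160, 184, 223 and 190 in C1MDT, 134, 136, 141 and 154 in C1HV, and 179, 237.9, 185 and 195 in C1HDT, with log2 fold changes of 3.12 ± 0.13, 3.58 ± 0.13, 3.43 ± 0.14 and 3.93 ± 0.13. In C1MV vs C1M, 7 of the 10 genes were called higher and 2 lower (22.0% and 23.9% of all tested genes). In C1MDT vs C1M the counts were 6 and 2 (24.5% and 27.9%), in C1HV vs C1H 7 and 2 (22.0% and 25.1%), and in C1HDT vs C1H 7 and 2 (26.3% and 29.4%). The genes called lower were Lamc1 and Nid1 in each comparison. Medians over the 10 genes were 1.67, 2.14, 1.65 and 2.09 on the log2 scale, and those over all tested genes were -0.04, -0.06, -0.06 and -0.06.

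**Figure D2:**
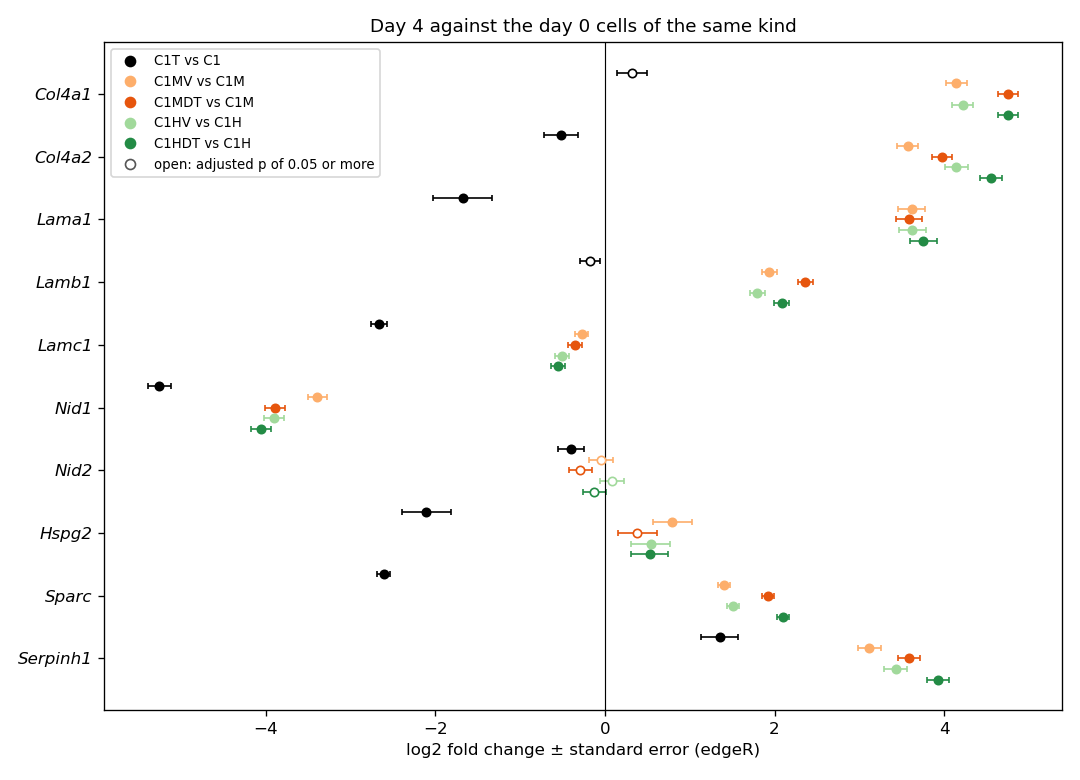
Log2 fold change ± standard error (edgeR, 4 libraries per group) of each gene at day 4 against the day 0 cells of the same kind, with C1T vs C1 in black, the middle fraction in orange and the high fraction in green. Filled points passed an adjusted p of 0.05. Nid1 lies left of 0 in all 5 comparisons, whereas Lama1, Lamb1 and Sparc lie right of 0 only where the cells had been induced before.

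Day 4 cells with prior induction were next compared with C1T, which differentiated alongside them. Of the listed genes 10 of 10 were called higher in C1MV and in C1HV, where 15.3% and 13.7% of all tested genes were called higher. In C1MDT and C1HDT 9 of 10 were called higher (16.9% and 17.4% of all tested genes), with Nid2 not called, and 0 were called lower in any of the 4 comparisons, which share the C1T libraries (14.9%, 16.5%, 14.3% and 16.1% of all tested genes in C1MV, C1MDT, C1HV and C1HDT). For Lama1 all 16 libraries with prior induction lay between 162 and 288 CPM and the C1T libraries between 3.36 and 6.53, rises of 48.3-fold, 47.4-fold, 47.5-fold and 51.9-fold for C1MV, C1MDT, C1HV and C1HDT (log2 fold change 5.60 ± 0.21, 5.57 ± 0.21, 5.57 ± 0.22 and 5.70 ± 0.21). Col4a2 was 14.7-fold, 19.6-fold, 14.5-fold and 19.3-fold higher than in C1T in the same order, and Col4a1 12.5-fold, 19.1-fold, 12.4-fold and 17.9-fold. The collagen IV genes thus had their highest values where the inducers were kept.

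Sparc exceeded C1T by 10.4-fold, 14.9-fold, 9.87-fold and 14.9-fold, again in that order (adjusted p at most 4.57e-82). Lamb1 was 6.26-fold, 8.40-fold, 6.64-fold and 8.10-fold higher, and Serpinh1 6.25-fold, 8.63-fold, 6.37-fold and 8.99-fold. For Hspg2 the folds were 4.29, 3.21, 4.10 and 4.06, and for Lamc1 3.56, 3.37, 3.57 and 3.45. Nid1, the gene that fell most in all cells, was still 2.64-fold, 1.87-fold, 2.05-fold and 1.84-fold above C1T (adjusted p at most 0.000173), with no overlap of libraries. Nid2 differed least: it was at 35.9, 42.7, 36 and 56.4 CPM in C1MV (log2 fold change 0.44 ± 0.15, adjusted p = 0.0149) and at 40.3, 50.6, 43.0 and 38.4 in C1HV (0.50 ± 0.15, adjusted p = 0.00735), and in C1MDT and C1HDT its log2 fold change was 0.20 ± 0.15 and 0.29 ± 0.15 (adjusted p = 0.33 and 0.133). The call in C1MV was lost without C1T replicate 4 or C1MV replicate 4 (adjusted p = 0.0826 and 0.0927). Rtraf, whose reads could be mixed with those of Nid2, averaged 185 to 216 CPM in these 4 groups against 132 in C1T, and its part in the Nid2 result was not tested.

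Whether differentiation itself changed these genes differently after induction was tested as an interaction, the change from day 0 to day 4 in each induced line of cells against that from C1 to C1T. In each of the 4 tests 9 of the 10 genes were called higher and 0 lower, all but Nid2. Over all tested genes, 11.0%, 11.8%, 10.7% and 12.7% were called higher and 11.6%, 12.6%, 11.2% and 12.6% lower for C1MV, C1MDT, C1HV and C1HDT. The 4 tests share C1 and C1T. For Sparc, which fell in C1T and rose in the induced groups, the differences were 4.01 ± 0.10, 4.54 ± 0.10, 4.12 ± 0.10 and 4.71 ± 0.10 on the log2 scale. For Nid1, which fell in every group, it was 1.86 ± 0.21, 1.36 ± 0.21, 1.36 ± 0.22 and 1.20 ± 0.22, so the decrease was smaller after induction. Nid2 had a difference of 0.48 ± 0.21 for C1HV (adjusted p = 0.0833), which passed the threshold without C1 replicate 2, C1H replicate 2, C1T replicate 2 or C1HV replicate 4 (adjusted p = 0.0373 to 0.0489).

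Where dox and TMP were kept for the 4 days, rather than withdrawn, a subset of the genes was higher still. The fusion protein and the drugs themselves cannot be told apart in this comparison. Col4a1, Col4a2, Lamb1, Sparc and Serpinh1 were called higher in C1MDT vs C1MV and in C1HDT vs C1HV, and in every one of these 10 comparisons the kept libraries all exceeded the withdrawn libraries. The share of all tested genes called higher was 6.64% and 9.10%, and the share without overlap, in either direction, was 14.6% and 17.1%. Sparc rose by 0.52 ± 0.07 in the middle fraction (adjusted p = 7.39e-11) and 0.59 ± 0.07 in the high fraction (adjusted p = 2.73e-13) on the log2 scale. Col4a1 rose by 0.61 ± 0.09 and 0.53 ± 0.09 (adjusted p = 5.89e-07 and 8.82e-06), Serpinh1 by 0.47 ± 0.10 and 0.50 ± 0.10, and Col4a2 by 0.41 ± 0.09 in both, with 0.28 in the high fraction without C1HDT replicate 2 (adjusted p = 0.033). In the same comparisons 9 of 10 naive markers were lower in each fraction, with 1 higher in the high fraction. Of 6 formative markers 5 were higher in each fraction. Of 16 tested endoderm markers 5 were called higher and 1 lower in the middle fraction, and 5 and 0 in the high fraction. Of all tested genes 5.95% and 6.88% were called lower. The part of these markers in the results was not tested. Lamb1 was at 267, 358, 365 and 399 CPM in C1MV and 455, 486, 486 and 427 in C1MDT, and at 344, 382, 370 and 373 in C1HV and 393, 520, 408 and 474 in C1HDT. Its rise was 0.42 ± 0.08 and 0.29 ± 0.08 (adjusted p = 2.51e-05 and 0.00635), and the latter was lost without C1HDT replicate 2 or 4 (adjusted p = 0.12 and 0.0505).

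Of the other 5 members, Nid1 was called in the middle fraction only, a difference between fractions that did not pass its own test. It was at 25.4, 17.6, 23.6 and 33.5 CPM in C1MV and 17.9, 19.5, 16.2 and 15.1 in C1MDT, overlapping groups with a log2 fold change of -0.50 ± 0.16 (adjusted p = 0.0203), the only decrease called among the 10 genes (5.95% of all tested genes were called lower in C1MDT vs C1MV and 6.88% in C1HDT vs C1HV). The call was lost without C1MV replicate 1 or 4 or C1MDT replicate 3 or 4 (adjusted p = 0.0674 to 0.141) and with only these groups in the fit (adjusted p = 0.0603). Neither Lama1 nor Lamc1, the chains that pair with Lamb1, was called, and the 95% interval of the log2 fold change was -0.26 to 0.20 and -0.10 to 0.36 for Lama1 and -0.24 to 0.08 and -0.21 to 0.11 for Lamc1 in the middle and high fractions. Nid2 and Hspg2 were not called in either, with log2 fold changes of -0.24 and -0.42 in the middle and -0.21 and -0.01 in the high fraction. With 1 library left out those in the middle fraction ran from -0.34 to -0.12 for Nid2 and from -0.56 to -0.17 for Hspg2, closest to 0 without C1MV replicate 4.

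**Figure D3:**
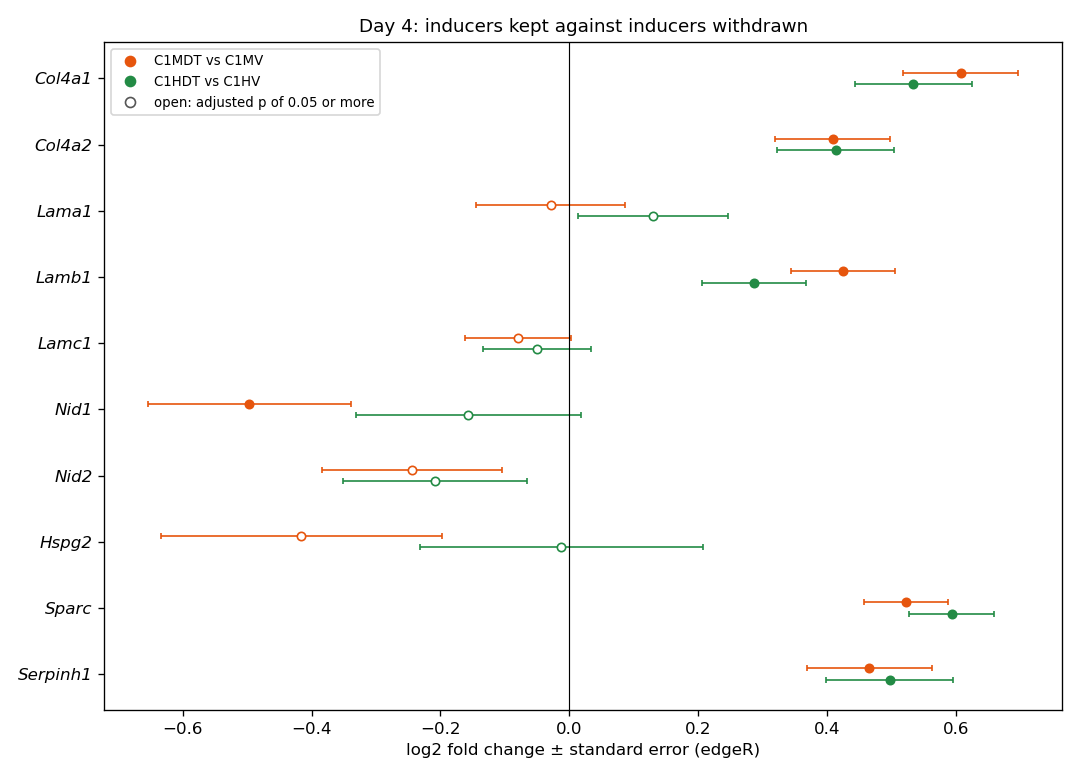
Log2 fold change ± standard error (edgeR, 4 libraries per group) of each gene with inducers kept against withdrawn during differentiation, in the middle (orange) and high (green) fraction. Filled points passed an adjusted p of 0.05, and Col4a1, Col4a2, Lamb1, Sparc and Serpinh1 lie right of 0 in both fractions with filled points.

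The sorted fraction made no detectable difference at day 4. In C1HV vs C1MV edgeR called 0 of the 10 genes (0.00654% of all tested genes), and in C1HDT vs C1MDT 0 of 10 (0% of all tested genes). An unadjusted p under 0.05 was found for 1 of 10 in the former and 0 of 10 in the latter. Among all 15280 tested genes it was found for 1150 and 814. DESeq2 called 0 in both. The 95% intervals of the log2 fold changes reached from -0.69 to 0.37 in the former and from -0.35 to 0.76 in the latter. The effect of keeping the inducers was also not shown to differ between the fractions. The test of that difference called 0 of 10 by edgeR (0% of all tested genes) and by DESeq2 (20 of all tested genes). By edgeR 0 of 10 had an unadjusted p under 0.05, where 1284 of all 15280 tested genes did, with intervals from -0.36 to 1.01.

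Because Lama1, Lamb1 and Lamc1 moved differently, the makeup of the laminin transcripts shifted, which is given as a description. The 3 chains together were at 471 ± 34.4 CPM in C1, 374 ± 23.7 in C1M and 435 ± 23.1 in C1H, at 122 ± 5.18 in C1T, and between 783 and 890 CPM on average in the 4 groups with prior induction at day 4. Lamc1 supplied 83.6% ± 2.09 of this sum in C1, 71.3% ± 1.84 in C1M and 71.9% ± 1.34 in C1H. At day 4 its share was 50.8% ± 2.47 in C1T and 28.4% ± 2.12, 23.5% ± 2.6, 27.8% ± 1.03 and 24.2% ± 2.40 in C1MV, C1MDT, C1HV and C1HDT. No library with prior induction at day 4 reached the lowest share in C1T, 47.2%.

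Lama1 made up 2.99% ± 0.67 for C1, 4.61% ± 0.65 for C1M, 3.82% ± 0.75 for C1H and 3.66% ± 1.04 for C1T, and 27.2% ± 2.48, 23.7% ± 1.49, 26% ± 2.00 and 25.5% ± 1.59 in C1MV, C1MDT, C1HV and C1HDT. C1T thus shared a low Lama1 share with day 0 and a high Lamb1 share, 45.6% ± 1.51, with the induced day 4 groups, at 44.4% to 52.8% on average. These shares compare 3′ tags of genes that may be captured unequally, so their shifts between groups and not their absolute values are described. Col4a1 per Col4a2 came to 1.37 ± 0.11 for C1, 1.42 ± 0.40 for C1M and 1.98 ± 0.42 for C1H. At day 4 it was 2.46 ± 0.47 in C1T, where both genes were low, and 2.07 ± 0.15, 2.40 ± 0.24, 2.10 ± 0.17 and 2.29 ± 0.24 in C1MV, C1MDT, C1HV and C1HDT.

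**Figure D4:**
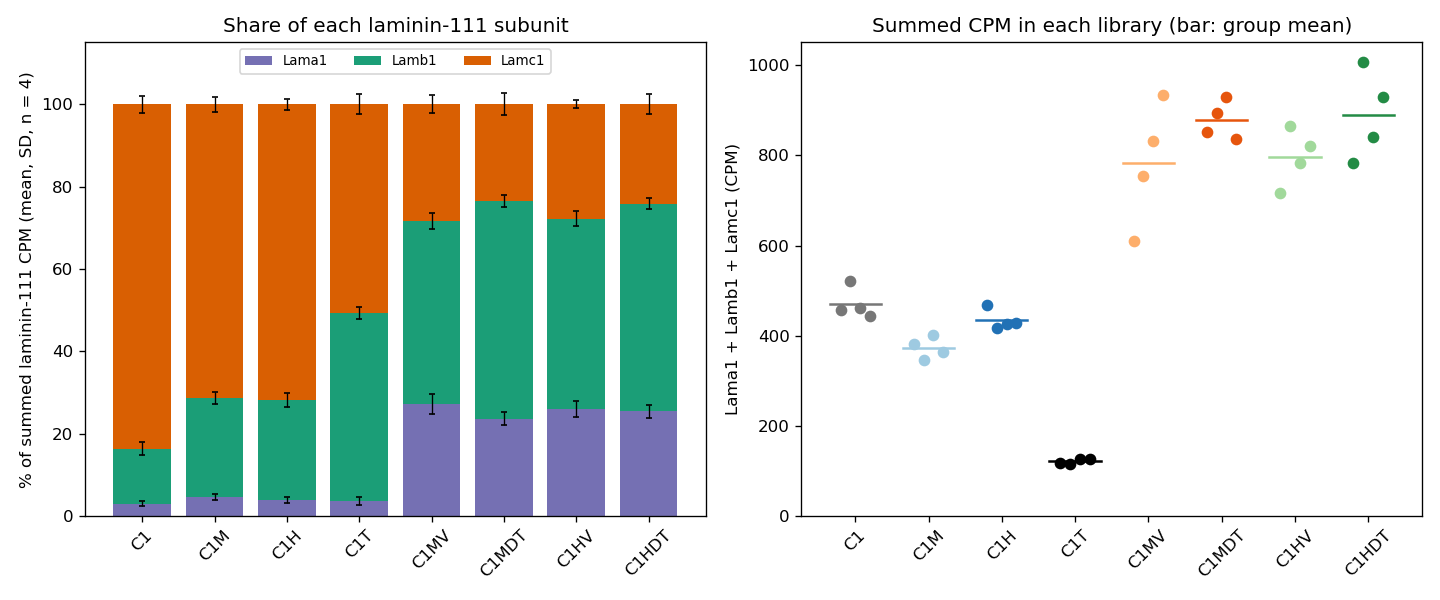
Share of Lama1, Lamb1 and Lamc1 in their summed CPM per group (stacked bars, mean and SD, n = 4, in %) and the summed CPM in each library (points, with the group mean as a bar). Lamc1 supplies 83.6% in C1 and at most 30.7% in every day 4 library with prior induction, while the sum is lowest in C1T at 122 CPM.

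Across the 32 libraries, which share group structure and are given as a description, the log2 CPM of Col4a1 and Col4a2 had a Pearson r of 0.99, Lama1 and Lamb1 0.98, and Col4a1 and Serpinh1 0.98. Nid1 ran against them, with an r of -0.75 with Serpinh1 and -0.70 with Col4a1, but 0.73 with Lamc1. Lamc1 in turn had an r of 0.74 with Hspg2. With the mean of the other 9 genes Sparc had an r of 0.95 and Lama1 0.90, while Lamc1 had 0.44, Nid2 0.35 and Nid1 -0.27. Among 9294 genes outside the set whose mean log2 CPM reached 3, those whose log2 CPM was most like the mean standardized level of the 10 genes were Slc2a3 (r 0.95), 2200002D01Rik, Stard8, Npl, Lrpap1, Tmem144, Emp2, Cd63, Tcn2 and Mgat4b (r 0.91). Slc2a3, a glucose transporter gene, averaged 533 CPM in C1, 294 in C1T and 709 to 815 in the day 4 groups with prior induction. Emp2, a gene for a tetraspan membrane protein, averaged 21.8, 2.52 and 26.6 to 33.1 CPM.

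Other genes of the pathway were examined in the comparison of C1MDT with C1T. Of all tested genes 16.9% were called higher and 16.5% lower in it. Of 27 tested genes for collagen folding, modification and secretion 11 were called higher and 0 lower, with a median log2 fold change of 0.41. They included the prolyl hydroxylase genes P4ha1 (1.98 ± 0.17) and P4ha2 (1.10 ± 0.27) and the lysyl oxidase gene Loxl2 (1.01 ± 0.19). P4ha1 averaged 13.6 CPM in C1T and 52.5 in C1MDT, and P3h2, another prolyl hydroxylase gene, rose from 0.506 CPM, under the floor of 3 counts, to 6.22. C1MV, C1HV and C1HDT had 10 and 0, 10 and 1, and 12 and 1 of these genes higher and lower than C1T. Of 25 other tested basement membrane components 5 were called higher and 3 lower, with a median of 0.18, shares near those of all tested genes, and C1MV, C1HV and C1HDT had 6 and 1, 6 and 2, and 5 and 3 with medians of 0.53, 0.56 and 0.24. Egflam, the gene for pikachurin, rose from 0.687 to 14.4 CPM and Tinagl1 from 0.803 to 7.21, with the C1T means under the floor of 3 counts, whereas Npnt (nephronectin) fell from 7.51 to 1.83 CPM and Egfl6 from 1.91 to 0.519, also under the floor.

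Receptors and remodelling enzymes were also counted in C1MDT vs C1T. Of 18 receptor genes 5 were called higher and 2 lower (median 0.13), among them the integrin α chain gene Itga3 (0.81 ± 0.12) and the tetraspanin gene Cd151 (0.55 ± 0.11), and in the other direction the integrin gene Itga1 (4.55 to 1.11 CPM, the latter within the range of the floor) and the collagen receptor gene Ddr2 (-0.98 ± 0.26). Of 16 remodelling genes 8 were called higher and 2 lower (median 0.41), led by the protease gene Htra1 (4.59 ± 0.24) and the metalloproteinase inhibitor gene Timp2 (2.97 ± 0.22). Htra1 averaged 64.6 CPM in C1, 1.96 in C1T and 48.4 in C1MDT. The 10 basement membrane genes had a median log2 fold change of 3.09 in this comparison and all tested genes -0.01.

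Endoderm is a known source of these matrix proteins, and most of its markers were higher in the induced day 4 groups, as the basement membrane genes were. Of 18 markers of primitive, parietal and visceral endoderm 16 were tested. Against C1T 12 were called higher and 1 lower in C1MV, 11 and 3 in C1MDT, 12 and 0 in C1HV, and 12 and 3 in C1HDT. In the same order, 15.3%, 16.9%, 13.7% and 17.4% of all tested genes were called higher and 14.9%, 16.5%, 14.3% and 16.1% lower. Sox17, Cubn, Dab2 and Amn had the largest changes of the list in C1MDT vs C1T, where Sox17 rose from 0.240 to 20.4 CPM and Cubn from 0.239 to 16.2, both from under the floor of 3 counts. Dab2 averaged 11.2 CPM in C1T, 233 and 253 with inducers withdrawn (C1MV, C1HV) and 448 and 442 with inducers kept (C1MDT, C1HDT). The summed CPM of the 18 markers ran from 748 to 955 in C1, 502 to 663 in C1M, 456 to 679 in C1H and 851 to 1380 in C1T. C1MV libraries had 1281 to 1572, C1HV libraries 1298 to 1531, C1MDT libraries 1455 to 1624 and C1HDT libraries 1419 to 1678. Most of the sum in C1T came from Apoa1 and Ttr, at 712 ± 178 and 211 ± 78.5 CPM, which were also present at day 0. Apoa1 fell to 441 ± 56.8 CPM and Ttr to 129 ± 14.9 in C1MDT vs C1T (log2 fold change -0.69 ± 0.15 and -0.71 ± 0.19, adjusted p = 0.000936 and 0.00407), and Fst fell from 4.98 to 1.02 CPM, the latter within the range of the floor. Apoa1, Ttr and Fst are named outside the rule for named genes, after their values were seen. Without Apoa1 and Ttr, abundant markers that were lower in C1MDT, a choice made after their values were seen, the sum ran from 34 to 83.5 CPM at day 0 and 81.6 to 98.7 in C1T, against 456 to 711 and 605 to 680 with inducers withdrawn (C1MV, C1HV) and 885 to 1044 and 884 to 1080 with inducers kept (C1MDT, C1HDT). Sox7, Thbd and Afp were at 0 in all C1 libraries, Afp also in C1MV and Thbd in C1MDT. From C1 to C1T, where 7 of the 10 basement membrane genes fell (24.9% of all tested genes), the median of this sum was 52.8 and 86.1 CPM, and in C1M and C1H it was 74.9 and 62.0. The order at day 0 turns with the removal, as the median of all 18 markers was 795 CPM in C1, 574 in C1M and 620 in C1H. The part of endoderm cells in the levels of the basement membrane genes was not tested.

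**Figure D5:**
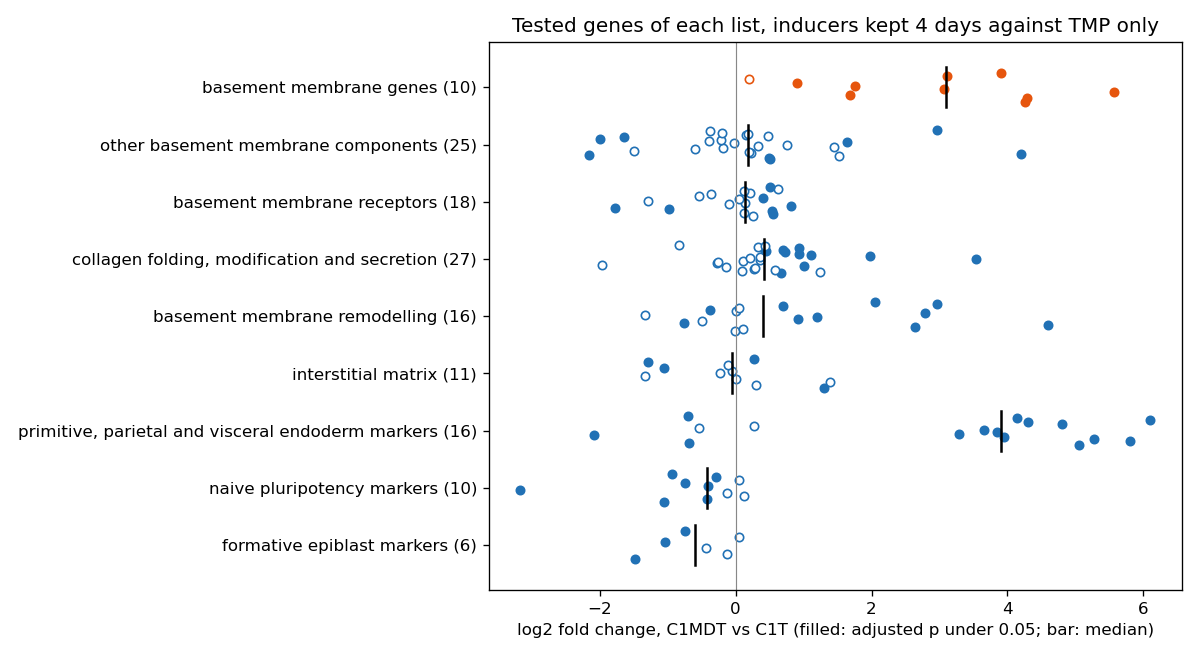
Log2 fold change in C1MDT vs C1T of every tested gene of 9 lists (number tested in brackets), with filled points for an adjusted p under 0.05 and a bar at the list's median. The medians are 3.09 for the basement membrane genes, 3.90 for the endoderm markers and 0.41 for collagen folding genes, and that of the formative markers is -0.59.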

How the data were processed

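RNA of 32 cultures was sequenced from transcript 3′ ends (QuantSeq 3′ mRNA-Seq). Per the study's methods, the authors used bbduk for trimming, STAR for alignment to mm10 and htseq-count for counting. The deposited values are raw counts of uniquely aligned reads per Ensembl gene, 1 table per library. The strand setting of the counting is not given in the sources used here. Groups and replicate numbers came from the labels.

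Gene names came from the supplied name table, which matched 30934 of 31053 identifiers. Entries naming no gene held 58.1% to 63.5% of a table's total and were left out. edgeR's quasi-likelihood test (edgeR 4.0.16, R 4.3.3, TMM factors, robust dispersion) was fitted once to the 8 groups over 32 libraries. It covered the 15280 genes that reached 1 CPM in 4 or more libraries, with Benjamini-Hochberg adjustment over all of them and a threshold of 0.05. CPM are TMM-scaled, and log2 CPM used a prior count of 2. Each ± beside a CPM, share or ratio is an SD (n = 4), and each ± beside a log2 fold change is a standard error. Intervals of 95% are the change ± 1.96 standard errors. A floor of 3 counts was 0.838 to 2.14 CPM depending on the library, and it covers counting error only.

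The members and lists were chosen with earlier results of these data known. Every member was named. From other lists up to 4 genes were named per comparison described, those with the greatest absolute change among genes past the threshold whose mean log2 CPM reached 1, and some are not reported here. Genes named outside this rule are marked. Alternatives were RLE size factors, scaling by library size alone, DESeq2 (1.42.0), all genes unfiltered, a filter of 1 CPM in every library, the replicate number as a block, a fit of the compared groups alone, and leaving out each library. The steps were tested on simulated counts built from these libraries. No replicate pair agreed within sampling noise, since the smallest chi-square per degree of freedom was 1.51. Promoter sequences are from RefSeq (GRCm38.p6) and gene positions from GENCODE (GRCm38).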

Additional observations from a re-analysis of the deposited data

Results flagged for a closer look

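Of the 80 groups of 4 libraries in which the CPM of a gene were examined, 3 held a library far from the other 3, and chance gives about 1 in 20. C1HV replicate 4 had 409 CPM of Col4a1, C1H replicate 1 had 340 CPM of Lamc1, and C1 replicate 2 had 14.2 CPM of Serpinh1.

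The change from day 0 to day 4 differed between each induced line of cells and the uninduced cells for 9 of the 10 genes, all but Nid2, by the interaction test of edgeR, where 11.0%, 11.8%, 10.7% and 12.7% of all tested genes were called higher and 11.6%, 12.6%, 11.2% and 12.6% lower for C1MV, C1MDT, C1HV and C1HDT. The differences from C1T vs C1, on the log2 scale, were 3.83, 4.43, 3.90 and 4.44 for Col4a1 in C1MV, C1MDT, C1HV and C1HDT. In the same order they were 4.09, 4.50, 4.66 and 5.08 for Col4a2, 5.30, 5.27, 5.31 and 5.44 for Lama1, 2.12, 2.54, 1.98 and 2.26 for Lamb1, and 2.39, 2.31, 2.17 and 2.12 for Lamc1. They were 1.86, 1.36, 1.36 and 1.20 for Nid1, 2.91, 2.49, 2.65 and 2.64 for Hspg2, 4.01, 4.54, 4.12 and 4.71 for Sparc, and 1.76, 2.23, 2.08 and 2.57 for Serpinh1. These comparisons share the C1 and C1T libraries.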

How the results depend on the processing

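Replicate numbers recur in every group but did not pair the libraries: libraries of the same number had a mean correlation of deviations of -0.0016 over 112 pairs, against 0.00054 for other pairs. For 7 of 32 libraries the mean correlation with libraries of other groups was highest for their own number. With the replicate block, 170 of 170 gene changes (10 genes in 17 comparisons) kept their direction and their side of the threshold, and the largest move was 0.0231 on the log2 scale. Without the filter on low counts 170 of 170 did so too, with DESeq2 and with only the groups compared 168, with RLE factors and with 1 CPM in every library 167, and with library size only 166, and 0 reversed. The calls lost were those of Hspg2 in C1H vs C1, C1HV vs C1H and C1HDT vs C1H, Serpinh1 in C1H vs C1 and Nid1 in C1MDT vs C1MV, and that of Nid2 in C1MDT vs C1M was gained. The count of the 10 genes called in C1H vs C1M was 0, 2 with only the groups compared, and 0 to 1 with a library left out. The cause was not tested. The 40 changes in the comparisons between sorted fractions, of which 0 were called, are outside these counts. Over 280 values under the settings without a library left out, 268 kept direction and side, 10 reversed and 2 were gained, and with a library left out 324 of 400 did, 75 reversed and 1 was gained.

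With 1 library left out, 1626 of 1680 changes kept direction and side, 35 calls were lost, 6 were gained and 13 reversed, none of them of a called change. The ranges of the changes that reversed were -0.25 to 0.16 for Hspg2 in C1HDT vs C1HV, -0.14 to 0.13 for Lama1 and -0.16 to 0.0038 for Lamc1 in C1MDT vs C1MV, -0.068 to 0.079 for Nid2 in C1H vs C1, and -0.13 to 0.046 for Nid2 in C1MV vs C1M. The mean log2 CPM of the 10 genes in C1 was 5.95, 5.92 with library size only and 5.91 with a prior count of 0.5. Depth limits the low genes: at day 0 a library held 14 to 62 counts of Serpinh1 and 23 to 61 of Hspg2. A C1T library held 7 to 10 counts of Lama1 and 7 to 15 of Hspg2, so their folds over C1T rest on few counts.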

Other observations

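Of 11 tested interstitial matrix genes, 3 were called higher and 5 lower in C1T vs C1 (24.4% and 24.9% of all tested genes), and 2 and 2 in C1MDT vs C1T (16.9% and 16.5%), where their median log2 fold change was -0.05. Fn1, the gene for fibronectin, averaged 1005 ± 41.0 CPM in C1, 552 ± 36.4 in C1M and 561 ± 16.5 in C1H, and at day 4 it averaged 165 ± 5.08 CPM in C1T, 153 ± 12.4 in C1MDT and 159 ± 7.73 in C1HDT. In C1MV and C1HV it averaged 229 ± 19.1 and 233 ± 9.52 CPM, and it fell by 0.58 on the log2 scale in C1MDT vs C1MV (adjusted p = 7.8e-10), where Col4a1 and Sparc rose.

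Of the other basement membrane components, 3 of 25 were called higher and 10 lower in C1T vs C1. Col18a1, the gene for collagen XVIII, rose by 2.65 ± 0.11 on the log2 scale, from 31.8 to 199 CPM, and averaged 277 to 285 CPM in the day 4 groups with prior induction. Sulf1, a sulfatase gene acting on heparan sulfate, rose from 4.40 CPM in C1 to 135 in C1T and averaged 82.5 to 103 CPM in the other day 4 groups. Markers of endothelium were called higher in 0 of 4 tested and lower in 1 in C1MDT vs C1T by edgeR, and those of fibroblasts and mesenchyme in 1 and 0 of 6.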
